A study of Mus musculus with 6 samples.

Results

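The TAM receptors Axl, Mertk and Tyro3 and their ligands Gas6 and Pros1 were followed through a mixed population of mouse melanoma, stromal and immune cells profiled by single-cell RNA sequencing. The members were taken by gene symbol, and 5 of 5 were found among the 31053 genes listed. TAM receptors are tyrosine kinases at the cell surface. Their ligands, Gas6 and protein S (encoded by Pros1), are secreted proteins that hold on to phosphatidylserine, a lipid exposed on dying cells, and so bridge these cells to the receptor on a phagocyte. Signalling through the receptors drives engulfment of dying cells and dampens inflammatory responses of macrophages and dendritic cells, and Axl is also known as a marker of poorly differentiated melanoma cells.

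The labels name YUMM2.1, a mouse melanoma cell line, as the source of all samples, and separate an Empty vector group from a Bmal1 WT group. Arntl encodes Bmal1, which drives transcription in the circadian clock. The labels do not state the vector, its promoter, the endogenous Bmal1 status of the line, or whether cultured cells or tumors were taken, and no age or strain of a host is given. Each group was 1 droplet library of 3 replicates marked by hashtag antibodies (h1, h7 and h8 for Empty vector, h3, h5 and h9 for Bmal1 WT), and Bmal1 bHLH, a further group, was not analysed here because its 3 of 3 files copied the Bmal1 WT ones.

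The libraries held 34232927 UMIs (counted RNA molecules) in 4147 barcodes for Empty vector and 39561569 UMIs in 2785 barcodes for Bmal1 WT. They shared 5 barcodes. After filtering, 3978 and 2386 cells remained, with medians of 5094 and 7570.5 UMIs, of which 3222 and 1618 carried exactly 1 hashtag. Clustering without the 5 members gave melanoma-like (102 Empty vector and 309 Bmal1 WT cells), fibroblast-like (143 and 213), macrophage- or monocyte-like (464 and 273), dendritic cell-like (397 and 272) and NK cell-like (1114 and 402) classes, and T cell-like cells (791 and 300) were added for comparison. The share of cells with exactly 1 hashtag, and so in a replicate, differed by class. Fibroblast-like replicates held only 14, 9 and 12 of the 143 Empty vector cells and 20, 8 and 15 of the 213 Bmal1 WT cells. NK cell-like replicates held 341, 234 and 352 of 1114 and 203, 98 and 64 of 402. Because the replicates of a group shared a droplet channel, group and channel cannot be told apart, and since nothing says that the hashtags marked separate animals or cultures, p-values measure only the spread between these samples, which may be technical. In the melanoma-like class 10 of 12 markers were detected in either library, with the pigment genes Mlana and Tyrp1 at 0, and the summed marker level ran from 1461 to 2020 CPM (UMIs of the gene per 1000000 UMIs of the class) in Empty vector replicates and from 830.5 to 1155 CPM in Bmal1 WT replicates. In the other 5 classes every marker was detected. Arntl itself was at 55.7, 113 and 52.8 CPM in Empty vector and 49.99, 60.5 and 61.1 CPM in Bmal1 WT melanoma-like cells. These levels overlapped, and whether the vector carries the 3′ end counted here is not stated, so they do not check the labels.

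Axl, the receptor to which Gas6 binds most tightly, was abundant in 3 classes. In melanoma-like cells it was at 259, 227 and 281 CPM in the Empty vector replicates (h1, h7 and h8) and 234, 230 and 325 CPM in the Bmal1 WT replicates (h3, h5 and h9). In macrophage- or monocyte-like cells the values were 197, 312 and 160 CPM against 160, 310 and 189 CPM. Fibroblast-like cells had 162, 134 and 278 CPM against 112, 170 and 258 CPM. The ranges of these 3 classes overlapped, and their order (means over 6 replicates of 259 ± 38.4, 222 ± 71.2 and 186 ± 67.2 CPM, SD) was within the spread: neighbouring classes differed by a mean log2 ratio of 0.27 ± 0.57 (melanoma over macrophage, higher in 4 of 6 replicates) and 0.27 ± 0.75 (macrophage over fibroblast, 4 of 6). Dendritic cell-like cells held less Axl, 47.6 ± 33.9 CPM, and fibroblast-like cells exceeded them in 6 of 6 replicates (log2 ratio 1.98 ± 0.61, exact sign-flip permutation test, two-sided p = 0.03125, adjusted p = 0.125). T cell-like and NK cell-like cells were lowest, at 14.3 ± 6.86 and 3.12 ± 1.15 CPM. The sign-flip test over 6 replicates cannot give a p below 0.03125, and none of the 20 pairs of neighbouring classes over the 5 members passed 0.05 after Benjamini-Hochberg adjustment.

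**Figure D1:**
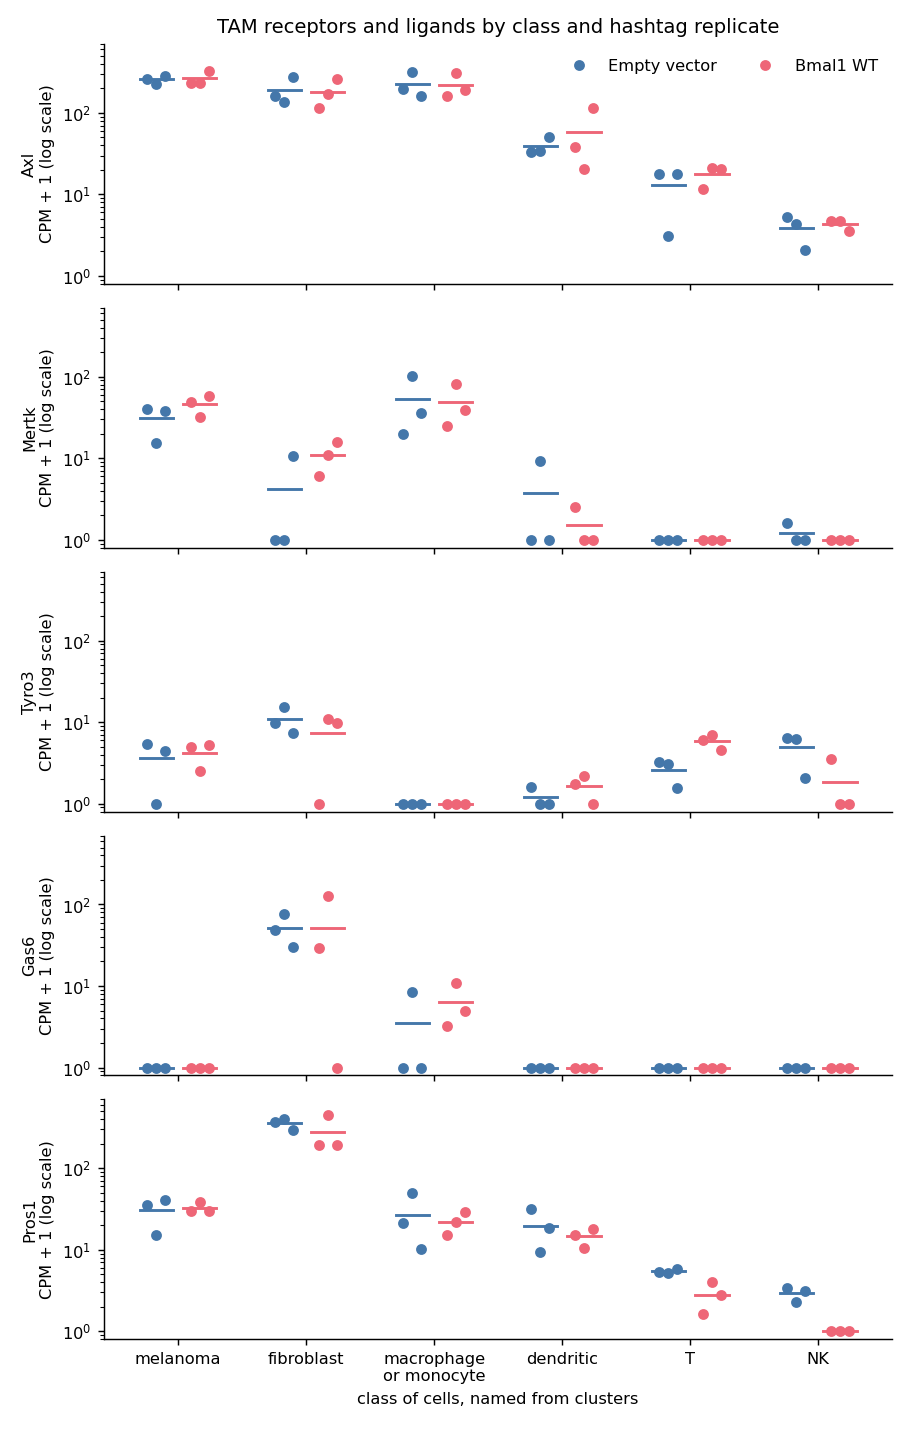
Level of each TAM receptor and ligand (CPM plus 1, log axis) in 6 classes of cells. Each point is 1 hashtag replicate, blue for Empty vector and red for Bmal1 WT, and the bars are means of 3 replicates. Axl was high in melanoma-, fibroblast- and macrophage-like cells, Gas6 was seen only in fibroblast- and macrophage-like cells among the classes shown, and the 2 groups overlap for each gene in melanoma-, fibroblast-, macrophage- and dendritic cell-like cells.

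Mertk, the receptor best known for engulfment by macrophages, had a narrower range. In macrophage- or monocyte-like cells it stood at 18.9, 101 and 35.4 CPM in the Empty vector replicates and 23.8, 81.4 and 37.9 CPM in Bmal1 WT. Replicates h7 and h5, 1 from each group, were far above the other 4. Melanoma-like cells overlapped with them, at 39.7, 14.2 and 36.9 CPM against 48.0, 30.8 and 56.3 CPM. The classes did not differ beyond their spread (log2 ratio of macrophage to melanoma 0.23 ± 1.36, higher in 2 of 6, exact p = 0.75), and the sign of this ratio depended on how cells were classed. The h7 value of melanoma-like cells rested on 1 Mertk UMI in 4 cells, and its part in the ratio was not tested. Melanoma-like cells exceeded fibroblast-like cells, at 6.57 ± 5.92 CPM, in 6 of 6 replicates (log2 ratio 1.98 ± 0.70, exact p = 0.03125, adjusted p = 0.125). Dendritic cell-like cells held 7 Mertk UMIs in all 6 replicates, of which 5 were in h7. NK cell-like cells held 1, and T cell-like cells none.

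Tyro3, a receptor known mainly from the nervous system, was rare, with 174 UMIs in both libraries. It reached 8.74, 14.3 and 6.46 CPM in Empty vector and 0, 9.99 and 8.80 CPM in Bmal1 WT fibroblast-like cells, values that rest on at most 3 UMIs per replicate. Melanoma-like cells had 2.93 ± 1.77 CPM, T cell-like cells 3.24 ± 2.03 CPM and NK cell-like cells 2.39 ± 2.48 CPM, and no neighbours in this order differed beyond their spread. Macrophage- or monocyte-like cells had 0 Tyro3 UMIs of 3758571 (Empty vector) and 2885240 (Bmal1 WT), which allows up to 0.798 and 1.04 CPM. Such limits, 3 counts of the total, and the intervals given elsewhere cover counting error only.

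Both ligands were highest in fibroblast-like cells. Gas6, the ligand that binds all 3 receptors, was found in fibroblast-like cells at 48.1, 76.4 and 29.1 CPM in Empty vector and 28.1, 125 and 0 CPM in Bmal1 WT, with h5 highest and h9 without a UMI. In macrophage- or monocyte-like cells it was at 0, 7.48 and 0 CPM against 2.24, 9.90 and 3.99 CPM, from 18 UMIs in all. Fibroblast-like cells exceeded macrophage-like cells in 5 of 6 replicates (log2 ratio 2.23 ± 1.56, exact p = 0.0625, adjusted p = 0.156). Melanoma-like cells, the most deeply sequenced class, held 0 Gas6 UMIs of 5799737 and of 17314509, which allows up to 0.517 and 0.173 CPM. Gas6 was also at 0 in dendritic, NK and T cell-like cells. Summed fibroblast markers were at 673 and 596 CPM in melanoma-like cells, against 26555 and 24111 CPM in fibroblast-like cells.

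Pros1, which encodes an anticoagulant plasma protein as well as a ligand of Tyro3 and Mertk, was found in more classes. Fibroblast-like cells had 367, 406 and 294 CPM in Empty vector and 192, 449 and 191 CPM in Bmal1 WT. Melanoma-like cells followed with 34.9, 14.2 and 40.4 CPM against 29.3, 37.5 and 28.7 CPM. The log2 ratio of fibroblast- to melanoma-like cells was 3.14 ± 0.73 and above 0 in 6 of 6 replicates (exact p = 0.03125, adjusted p = 0.125). Macrophage- or monocyte-like cells (23.5 ± 13.9 CPM) and dendritic cell-like cells (16.2 ± 7.95 CPM) came next, and neither melanoma- and macrophage-like nor macrophage- and dendritic cell-like levels differed beyond their spread (exact p = 0.34375 and 0.4375). T cell-like and NK cell-like cells had 3.14 ± 1.66 and 0.986 ± 1.14 CPM.

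Counted as shares of all UMIs of a gene in a library, melanoma-like cells held the largest share of Axl and Mertk and fibroblast-like cells that of both ligands. Melanoma-like cells, 2.56% of the Empty vector and 12.95% of the Bmal1 WT library, held 48.6% and 66.4% of Axl UMIs and 53.2% and 75.2% of Mertk UMIs. This class includes cluster 18, named on 3 of 12 markers and described below. The first rank of the class in Empty vector depends on that cluster. There cluster 15, the other melanoma-like cluster, held 431 Axl and 91 Mertk UMIs in cells with a Sox10 UMI. Its cells without one held 2 and 2, and macrophage- or monocyte-like cells held 737 and 141. In Bmal1 WT, cluster 15 held 856 and 202 in cells with a Sox10 UMI and 11 and 2 in the rest. Macrophage- or monocyte-like cells there held 629 and 130. Tyro3 was spread wider, with 25.7% and 43% of its UMIs in melanoma-like, 24.3% and 33% in fibroblast-like and 25.7% and 4% in NK cell-like cells. Macrophage- or monocyte-like cells, 11.7% and 11.4% of the libraries, held 20.8% and 10.1% of Axl UMIs and 36.6% and 17.3% of Mertk UMIs. Fibroblast-like cells, 3.59% and 8.93% of cells, held 95.8% and 86.2% of Gas6 UMIs and 56.6% and 59.4% of Pros1 UMIs. These shares move with the number of cells and with the depth per cell, whose medians were 31042.5 and 43038 UMIs in melanoma-like cells against 6671.5 and 9222 in macrophage- or monocyte-like cells, so the shift between the libraries does not measure a change in level.

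**Figure D2:**
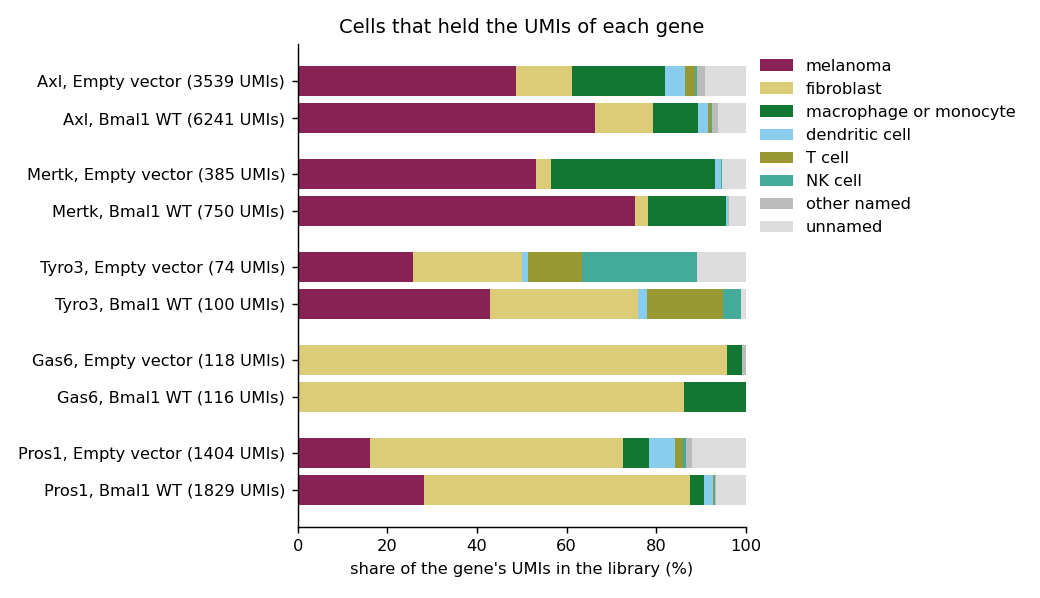
Share of the UMIs of each gene (%) held by each class of cells in the Empty vector and the Bmal1 WT library, with the number of UMIs in brackets. Melanoma-like cells held 48.6% to 75.2% of Axl and Mertk UMIs, and fibroblast-like cells held 86.2% and 95.8% of Gas6 UMIs.

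The share of cells with a UMI was compared after each cell was thinned to 2000 UMIs. Axl was then detected in 31.9% (95% interval 22.7 to 42.3, exact Clopper-Pearson) of melanoma-like cells in the Empty vector library and in 29.1% (23.9 to 34.6) in Bmal1 WT, and in 37.5% and 29.4% of fibroblast-like and 25.8% and 22.1% of macrophage- or monocyte-like cells. Unthinned, the melanoma-like shares were 69.6% and 85.8%. NK cell-like cells, the class lowest in Axl, gave 0.944% and 1.33% thinned (1.35% and 2.74% unthinned, at medians of 4083.5 and 5989.5 UMIs). T cell-like cells gave 1.32% and 3.17% thinned. The level of free RNA was not measured. Mertk was detected in 7.45% and 8.11% of thinned melanoma-like and 5.46% and 4.50% of macrophage- or monocyte-like cells, and in 0 of 953 and 0 of 375 NK cell-like cells. Pros1 was detected in 39.2% and 37.4% of thinned fibroblast-like cells, 6.38% and 7.09% of melanoma-like cells and 0.420% and 0.267% of NK cell-like cells. Gas6 was detected in 5% and 2.14% of thinned fibroblast-like cells and in none of the thinned cells of the other 5 classes. Thinning left out between 8 and 161 cells per class and library.

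Within the macrophage- or monocyte-like class, Mertk and Axl were higher in 1 of its 2 clusters in every replicate, at an adjusted p that did not reach 0.05. Cluster 9 was led by genes of the complement component C1q and by Mrc1, and cluster 4 by Arg1, Nos2 and Cxcl3. Mertk was at 72.1 ± 29.4 CPM in cluster 9 and 21.5 ± 13.3 CPM in cluster 4 (mean ± SD over 6 replicates), higher in 6 of 6 replicates with a log2 ratio of 1.58 ± 0.57 (exact sign-flip test, p = 0.03125, adjusted over the 9 pairs of clusters compared p = 0.0703). Axl followed the same pattern at 314 ± 45.5 against 115 ± 26.3 CPM, with a log2 ratio of 1.43 ± 0.34 in 6 of 6 replicates and the same p. Pros1 was at 29.5 ± 16.1 against 13.9 ± 9.38 CPM (0.86 ± 0.84, 6 of 6, the same p), and all 20 Gas6 UMIs of the class were in cluster 9. The pairs of clusters were chosen after the clusters had been seen. Cluster 9 made up 20%, 78.8% and 17.7% of the class in the Empty vector replicates and 24.6%, 63.5% and 40.8% in Bmal1 WT. Replicates h7 and h5, with the largest shares, were also those with the highest Mertk and Axl levels in the whole class. Within cluster 9 Mertk was highest in the same replicates, at 45.6, 109 and 77.6 CPM in Empty vector and 46.1, 105 and 49.7 CPM in Bmal1 WT. Axl there was at 347, 345 and 286 CPM against 279, 370 and 259 CPM. The part of the cluster shares in the class levels was not tested.

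**Figure D3:**
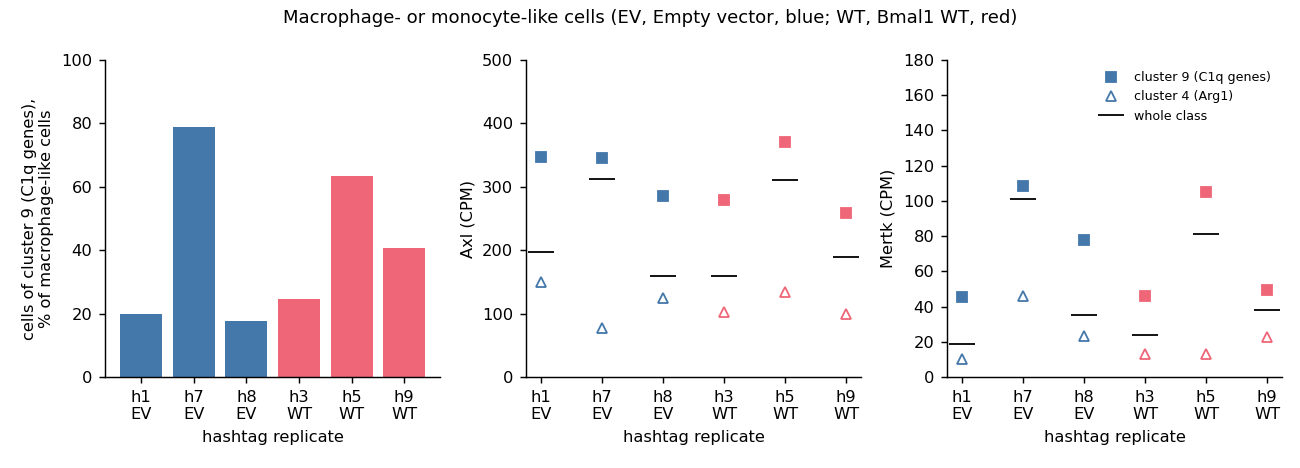
Macrophage- or monocyte-like cells by hashtag replicate (EV, Empty vector, blue; WT, Bmal1 WT, red). Left, cells of cluster 9 as a percent of the class; middle and right, Axl and Mertk (CPM) in cluster 9 (squares), cluster 4 (triangles) and the whole class (black bars). Cluster 9 lies above cluster 4 in 6 of 6 replicates for both genes, and the class level was highest in h7 and h5, where cluster 9 made up 78.8% and 63.5% of cells. Mertk within cluster 9 was also highest in h7 and h5.

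Among dendritic cell-like clusters, the mean Axl level was higher in the cluster led by Xcr1 and Clec9a (cluster 1, 70.7 ± 48.0 CPM) and in that led by Cd209a (cluster 19, 82.5 ± 24.4 CPM) than in the cluster led by Ccl22, Fscn1 and Ccr7 (cluster 12, 15.1 ± 14.3 CPM). Cluster 12 was below cluster 1 in 6 of 6 replicates (log2 ratio -1.96 ± 0.83, exact p = 0.03125, adjusted p = 0.0703), and clusters 19 and 1 did not differ beyond their spread (0.38 ± 1.02, exact p = 0.4375, adjusted p = 0.5625). The cluster led by Siglech (cluster 14) held 2 Axl UMIs in all. The high Axl level of h9 in the class (114 CPM, against 19.4 to 49.9 CPM in the other 5 replicates) came with 152.9 CPM in its cluster 1, against 28.9 to 98.1 CPM in the others. Pros1 was highest in cluster 19, at 63.9 CPM over both libraries (84 UMIs), against 7.73 CPM in cluster 1 and 1.03 CPM in cluster 12.

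Summed over cells, the levels of the ligands differed between fibroblast-like clusters, which was not tested over replicates. Over both libraries, Pros1 was at 364 CPM (Poisson 95% interval 346 to 383) in cluster 10, led by Lum, Col1a2 and Dcn, at 304 CPM (266 to 346) in cluster 17, led by Cthrc1 and Igfbp5, and at 62.8 CPM (50.2 to 77.6) in cluster 21, led by Adm, Ndufa4l2 and Angptl4, genes known to respond to low oxygen. Gas6 was at 47.7, 7.90 and 1.46 CPM in the same clusters, from 205, 6 and 2 UMIs. Axl varied less, at 219, 174 and 127 CPM. The spread between replicates was wider than these intervals. In cluster 10 Pros1 ran from 230 CPM (h9) to 594 CPM (h7), and Gas6 from 0 (h9) to 203 CPM (h7). In cluster 17, h7 held 44 Pros1 UMIs in 4 cells, and each other replicate at most 1 UMI. The cells per replicate in clusters 17 and 21 ran from 1 to 15, too few for a test between these clusters. Cluster 21 made up 75.0% of the class in Bmal1 WT replicate h3 and 33.3% in h9, and between 8.33% and 28.6% in the other 4.

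The 2 melanoma-like clusters both carried Axl and Mertk. Cluster 15, with Sox10, Erbb3 and Mcam raised, had 215 CPM of Axl, 49.1 CPM of Mertk and 66.9 CPM of Pros1 over both libraries. Cluster 18, which had 3 of 12 markers raised (Sox10, S100b and Ngfr) and a median of 58582 UMIs per cell, had 268, 27.7 and 19.6 CPM. Its name is less sure, as none of its 10 leading genes was a melanoma marker. At a finer clustering Klk6, Il11 and Igfbp3, which led it, led a cluster named pericyte (3 of 6 markers). Csn3, Ptprn and Tenm4 led an unnamed one. A marker gate on single cells called 95 cells of the whole melanoma-like class melanoma and left 310 without a class. Over 6 replicates the log2 ratio of cluster 15 to 18 was 0.30 ± 0.95 for Axl (exact p = 0.75), and that of cluster 18 to 15 was -0.24 ± 1.09 for Mertk (exact p = 0.65625) and -0.99 ± 1.62 for Pros1 (exact p = 0.21875). Replicate h7 had 1 cell of 1029 UMIs in cluster 15, with 1 Axl UMI and none of Mertk or Pros1. Without it the Axl ratio was -0.07 ± 0.33, and cluster 15 was higher in 5 of 5 replicates for Mertk (-0.68 ± 0.22) and Pros1 (-1.58 ± 0.82), each at an exact p of 0.0625, the smallest that 5 replicates allow. Split by Sox10, a transcription factor of the melanocyte lineage, Pros1 was at 42.5 CPM (37.1 to 48.6, Poisson 95% interval) in the 77 Empty vector cells with a Sox10 UMI and 12.4 CPM (5.69 to 23.6) in the 25 without. In Bmal1 WT it was at 39.4 CPM (35.8 to 43.2) in 185 cells and 11.6 CPM (9.08 to 14.7) in 124. In the same split Axl was at 307 against 224 CPM for Empty vector and 256 against 208 CPM for Bmal1 WT. Mertk went opposite ways, with 33.9 against 45.6 CPM in Empty vector and 38.6 against 21.3 CPM in Bmal1 WT. Cells with a Sox10 UMI were also deeper, with medians of 44217 against 18827 UMIs in Empty vector and 45305 against 37301.5 in Bmal1 WT, and cells are not replicates, so this split has no test and the part of depth in it was not tested. They were also more often in cluster 15 (41 of 77 against 10 of 25 in Empty vector and 101 of 185 against 20 of 124 in Bmal1 WT), and within cluster 18 Pros1 was at 27.4 against 13.9 CPM and 23.1 against 11.5 CPM.

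**Figure D4:**
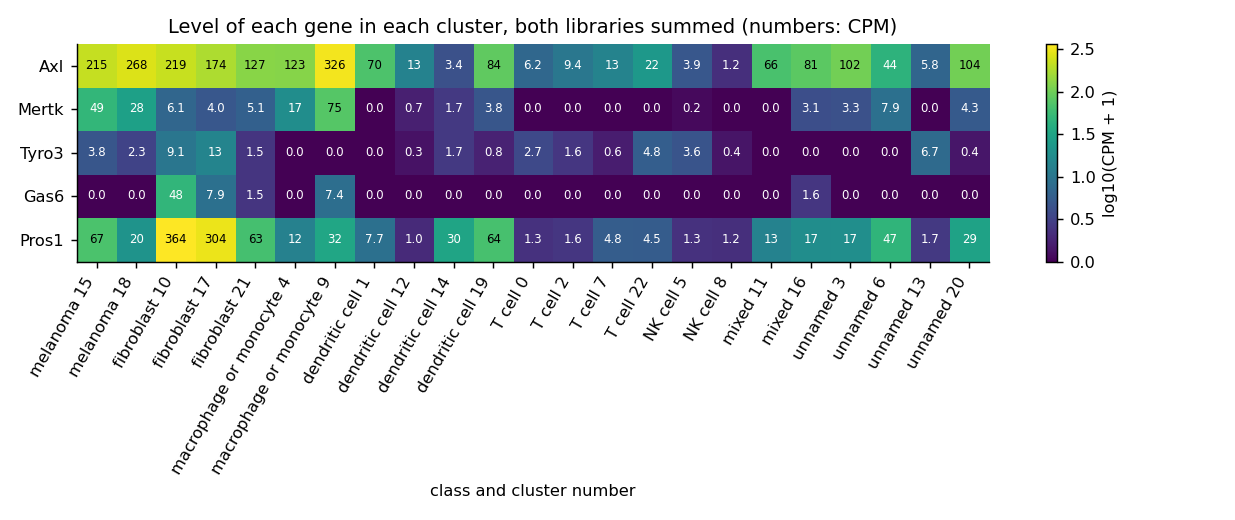
Level of the 5 genes in each of 23 clusters, both libraries summed. Color shows log10(CPM + 1) and the numbers are CPM, and clusters marked "mixed" held markers of several classes. Mertk was highest in cluster 9 (75.4 CPM), Gas6 in cluster 10 (47.7 CPM), and Pros1 in clusters 10 and 17 (364 and 304 CPM).

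Across the 23 clusters, which share libraries and differ in depth, the genes most like each member were ranked by Pearson r of log2(CPM + 5). For Axl these were Pgam1 (r = 0.89), a glycolytic enzyme, Pla2g4a (0.87), a phospholipase that releases arachidonic acid, and Itpripl2 (0.87). Mertk was closest to Itgb5 (0.84), an integrin subunit, followed by Gm4117 (0.82) and Adamtsl4 (0.82). Tyro3 was closest to Cd320 (0.83), Cdkl3 (0.79) and Cacna1a (0.79). Gas6 was closest to Steap4 (0.92), Cyp1b1 (0.92) and Gpx3 (0.92), and Pros1 to Cebpd (0.93), Slc39a1 (0.90) and Tmed3 (0.90). Between members, r was 0.73 for Axl and Mertk, 0.72 for Axl and Pros1 and 0.68 for Gas6 and Pros1, and between -0.05 and 0.52 for the other 7 pairs.

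In the wider pathway, partners of TAM signalling are given as levels over the 6 replicates, and differences between classes were not tested for them. Mfge8, another protein that bridges phosphatidylserine to phagocytes, was at 337 ± 246 CPM in melanoma-like and 242 ± 87.6 CPM in fibroblast-like cells, against 25.8 ± 28.8 CPM in macrophage- or monocyte-like cells. Ggcx and Vkorc1, enzymes of the vitamin K cycle that TAM ligands need for binding to phosphatidylserine, were at 36.6 ± 12.5 and 142 ± 16.6 CPM in fibroblast-like cells, the class with most Gas6 and Pros1, and at 17.6 ± 11.6 and 24.6 ± 10.96 CPM in melanoma-like cells. The sheddases Adam10 and Adam17, which can cut Axl and Mertk from the cell surface, were at 229 ± 45.7 and 144 ± 35.6 CPM in macrophage- or monocyte-like cells and at 188 ± 54.1 and 66.1 ± 7.37 CPM in melanoma-like cells. Timd4, a phosphatidylserine receptor of resident macrophages, had no UMI in macrophage- or monocyte-like cells, while Stab1, another such receptor, was at 103 ± 42.4 CPM there. Abca1 and Abcg1, which export cholesterol after engulfment, were at 113 ± 30.8 and 112 ± 26.7 CPM in macrophage- or monocyte-like cells. Maf, a macrophage transcription factor, was at 156 ± 37.8 CPM there and at 183 ± 83.9 CPM in melanoma-like cells.

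The comparison of Bmal1 WT with Empty vector asked whether Bmal1 status of the line moved the receptors or ligands in any class. No member passed the test in any class. In melanoma-like cells 0 of the 4 members tested were called by edgeR's quasi-likelihood test, where 0% of 11347 genes were called (451 at an unadjusted p under 0.05, and 4 called by DESeq2). Axl differed by a log2 fold change of 0.01 ± 0.23 (SE, 95% interval -0.50 to 0.52), Mertk by 0.30 ± 0.33 (-0.43 to 1.02), Pros1 by -0.14 ± 0.30 (-0.81 to 0.52) and Tyro3 by -0.30 ± 0.70 (-1.85 to 1.25), each with an edgeR adjusted p of 0.9995. For Mertk the unadjusted edgeR p of 0.786 was larger than its SE and interval imply. The direction of Pros1 depended on which cells were classed as melanoma-like, with 0.81 at a finer clustering, 0.40 with a marker gate on single cells and 0.62 in cluster 15 alone. The class held 33, 4 and 21 cells in h1, h7 and h8 and 27, 77 and 24 in h3, h5 and h9, and the summed melanoma markers given above were lower in every Bmal1 WT replicate, a difference whose part in these values was not tested. Counted over all cells of the class with or without a hashtag, Axl was at 297 CPM in Empty vector (Poisson 95% interval 283 to 311) and 239 CPM in Bmal1 WT (232 to 247), which compares the 2 libraries and not the conditions.

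In fibroblast-like cells 0 of 3 members tested were called, against 0% of 8322 genes (569 at an unadjusted p under 0.05, and 6 called by DESeq2). Pros1 differed by -0.38 ± 0.36 (95% interval -1.16 to 0.41, edgeR adjusted p = 0.897), Axl by -0.10 ± 0.38 (-0.93 to 0.73, adjusted p = 0.988) and Gas6 by -0.15 ± 0.91 (-2.16 to 1.85, adjusted p = 0.996). The Gas6 interval spans more than 2 log2 units on the lower side, so a large change would not have been detectable with 8 to 20 cells per replicate. Without h5 its log2 fold change was -1.74 and without h9 it was 0.51. Cluster 21, low in both ligands, was most frequent in h3 and h9, the replicates with the lowest Pros1 levels, and its part in the values was not tested. The fit used only cells with exactly 1 hashtag. Over all 143 and 213 cells of the class, Gas6 was at 47.0 CPM in Empty vector (Poisson 95% interval 38.7 to 56.5) and 24.9 CPM in Bmal1 WT (20.2 to 30.3). Pros1 was at 331 (308 to 354) and 270 CPM (254 to 287), and Axl at 186 (169 to 204) and 199 CPM (186 to 214). These values compare the 2 libraries and not the conditions.

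In macrophage- or monocyte-like cells 0 of 3 members tested were called, against 0% of 9484 genes (744 at an unadjusted p under 0.05, and 7 called by DESeq2). Axl differed by -0.01 ± 0.31 (95% interval -0.71 to 0.69), Mertk by 0.02 ± 0.60 (-1.32 to 1.36) and Pros1 by -0.21 ± 0.54 (-1.43 to 1.0), with edgeR adjusted p of 0.996, 0.996 and 0.940. Each group had 1 replicate rich in cluster 9 (h7 and h5). Without h7 the log2 fold change of Mertk was 0.82 and without h5 it was -0.67, and neither was called.

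**Figure D5:**
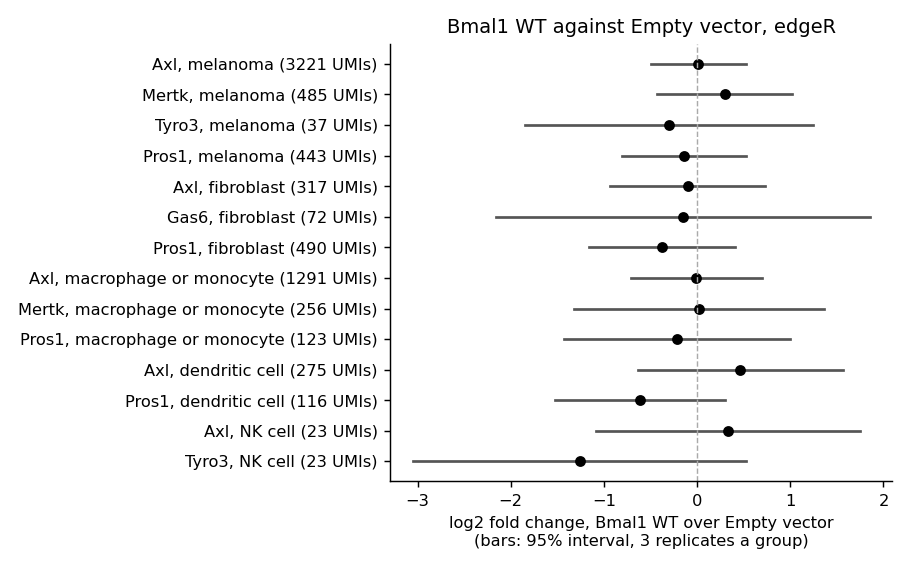
Log2 fold change of Bmal1 WT over Empty vector for the 14 combinations of gene and class tested by edgeR, with 95% intervals over 3 replicates a group; UMIs over the 6 replicates are in brackets. All 14 intervals include 0, and those of Axl in melanoma-like cells (-0.50 to 0.52) and macrophage-like cells (-0.71 to 0.69) are among the narrowest.

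In dendritic cell-like cells 0 of 2 members tested were called, where 1.94% of 10020 genes were (62 higher and 132 lower in Bmal1 WT, around a median log2 fold change of -0.14 over all genes, or -0.01 with TMM scaling; DESeq2 called 275). Without h8, h5 or h9 the count was 5, 4 or 6, and without h1 or h7 it was 101 or 40. Axl differed by 0.46 ± 0.50 (95% interval -0.63 to 1.56, edgeR adjusted p = 0.662), and without h9 the value was -0.41. Pros1 differed by -0.61 ± 0.41 (-1.52 to 0.30, adjusted p = 0.461). Of the genes of the wider pathway, 2 were called lower in Bmal1 WT. They were 1 of 2 tested signals against engulfment and 1 of 8 tested bridging proteins and other phosphatidylserine receptors. No other list of the pathway had a call. Sirpa, the receptor for the "do not eat me" signal Cd47, was at 92.8, 104 and 66.0 CPM in Empty vector and 40.5, 20.6 and 36.9 CPM in Bmal1 WT, without overlap, with a log2 fold change of -1.38 ± 0.27 (edgeR adjusted p = 0.0382). Stab1, from 39 UMIs, was at 8.98, 18.4 and 8.85 CPM against 0.750, 0 and 1.54 CPM (-3.77 ± 0.76, edgeR adjusted p = 0.0408). The make-up of the class moved with the groups. Cluster 1, with 3.38 CPM of Sirpa, made up 17.2%, 10.6% and 16.7% of the Empty vector replicates of the class, against 39.5%, 38.4% and 62.0% of the Bmal1 WT replicates. Cluster 19, with 174 CPM of Sirpa and 25.9 CPM of Stab1, made up 31.8%, 21.2% and 28.1% against 11.4%, 6.85% and 6%, and within cluster 19 Sirpa levels overlapped (221, 213 and 117 against 165, 114 and 180 CPM). Within cluster 14 Sirpa was lower without overlap (199, 178 and 177 against 161, 141 and 137 CPM, from 1 to 15 cells per replicate), as it was within cluster 1 (8.69, 35.1 and 9.34 against 0, 0 and 2.35 CPM, from 7 UMIs over both libraries). Within cluster 19 Stab1 was also lower without overlap, at 32.2, 66.6 and 17.2 CPM in 48, 14 and 32 cells against no UMI in 13, 5 and 3 cells. How many of all genes had groups without overlap was not counted, so the lack of overlap here has no background to compare with. How much of either call the make-up of the class accounts for was not tested. The calls of Sirpa and Stab1 held in 9 of 16 and 5 of 13 alternatives, and were lost in 5 of 6 (all but without h3) and 6 of 6 fits without 1 replicate.

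In NK cell-like cells, which hold few TAM molecules, 0 of 2 members tested were called, against 0.0411% of 9740 genes (1042 at an unadjusted p under 0.05, and 94 called by DESeq2). Tyro3, at 5.47, 5.26 and 1.09 CPM in Empty vector and 2.52, 0 and 0 CPM in Bmal1 WT, differed by -1.26 ± 0.87 (95% interval -3.05 to 0.53, edgeR adjusted p = 0.641), and Axl by 0.33 ± 0.69 (-1.09 to 1.75, adjusted p = 0.906). Pros1, from 10 UMIs, was below the minimum for a test, with 2.43, 1.31 and 2.17 CPM in Empty vector and no UMI in the Bmal1 WT replicates. Over all 14 combinations of member and class tested, no call appeared among 204 values under alternative settings, where the smallest adjusted p was 0.295.

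Of the other genes of the pathway, none was called in melanoma-, fibroblast-, macrophage- or NK cell-like cells. Of the 13 genes of phosphatidylserine bridges and other receptors, 6 were tested in melanoma-like cells with a median log2 fold change of -0.29, against -0.01 over all genes tested. Its most abundant gene there, Mfge8, differed by 0.64 ± 0.57. The 3 genes of the vitamin K cycle had medians of -0.56 in melanoma- and -0.40 in fibroblast-like cells, where the median over all genes was -0.07. The engulfment machinery had 9 of 9 genes tested in melanoma-like cells (median 0.12) and 8 of 9 in macrophage- or monocyte-like cells (median -0.07, against -0.02 over all genes). The 2 sheddases had a median of -0.46 in macrophage- or monocyte-like cells, with Adam10 at -0.52 ± 0.18 (edgeR adjusted p = 0.574). There, the 7 factors tied to Mertk transcription had a median of -0.24, and the 5 tested genes of interferon and cytokine feedback had a median of -0.36, with Socs3 at -0.45 ± 0.24 (edgeR adjusted p = 0.645). In fibroblast-like cells Abca1 was at 4.37, 4.78 and 0 CPM in Empty vector and 63.9, 99.9 and 43.996 CPM in Bmal1 WT, from 62 UMIs. The difference (4.43 ± 0.71) was not called (edgeR adjusted p = 0.284). Ucp2, a mitochondrial uncoupling protein of phagocytes placed in the same list, went the other way there (-2.32 ± 0.58, edgeR adjusted p = 0.624), and Abca1 differed by -1.15 ± 0.45 in melanoma-like cells (edgeR adjusted p = 0.9995). In macrophage- or monocyte-like cells this list of 3 (Abca1, Abcg1 and Ucp2) had a median of 0.01, with Abca1 at -0.10 ± 0.31. The scramblases and flippases, which set how much phosphatidylserine a cell exposes, had medians of -0.10 in melanoma- and -0.45 in fibroblast-like cells. Cd47 differed by 0.21 ± 0.22 in melanoma-like cells, where Sirpa was below the minimum for a test.

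The members lie at separate places in the genome (GRCm38, GENCODE M21). Axl is on the minus strand at chr7:25757273-25788705, Mertk on the plus strand at chr2:128698956-128802894 and Tyro3 on the plus strand at chr2:119797733-119818104. Gas6 is on the minus strand at chr8:13465374-13494490 and Pros1 on the plus strand at chr16:62854307-62929346. Gas6 overlaps Tmem255b on the other strand, which had 0 UMIs, and Mertk overlaps Gm14011 on the other strand, which had 3, and Gm23172 on its own strand, which was not among the genes listed. CACGTG, the palindromic E-box bound by Bmal1 with its partner Clock, was in 0 of the 5 promoter windows (250 bases before to 50 after the start, RefSeq on GRCm38) and in 7.15% of all 32851 such windows, which says nothing about sites outside these windows.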

How the data were processed

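Single-cell gene expression was measured with the 10x Genomics 3′ chemistry in hashtagged replicates. The authors deposited raw UMI counts per gene and barcode made with Cell Ranger 6.1.2, and the submitters' processing notes name mm10. The sources used here do not state the use of strand. The members and gene lists were chosen with earlier results of these data known.

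Cells with at least 200 genes and at most 20% mitochondrial UMIs were kept. Hashtags were assigned with a 2-component Gaussian mixture (scikit-learn 1.9.0). Cells of both libraries were clustered together (scanpy 1.11.5, 2000 variable genes without the 5 members, 30 principal components, 15 neighbours, Leiden resolution 1), and a cluster took the class with the largest share of its markers over 2-fold higher than in other cells, with at least 3. It stayed unnamed where another class had more markers, or the first marker, among its 10 leading genes. It also stayed unnamed where immunoglobulin genes led, or where it was shallow (median UMIs under 0.333 of that of the library) without a marker of its class among these genes. Clusters 11 and 16, whose single cells carried markers of several classes, and 4 unnamed clusters entered no class compared here. Doublets were kept, and cells with several hashtags entered no replicate. Scrublet scores were used only to leave out the top 5% as an alternative. Depth per class and replicate limits the precision, from 70523 UMIs (melanoma-like, h7) to 5259361 (melanoma-like, h5).

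UMIs were summed per class and replicate. The test was edgeR 4.0.16 on genes with 20 or more UMIs summed over replicates (quasi-likelihood, total UMI scaling, Benjamini-Hochberg over all genes tested, threshold 0.05, R 4.3.3). SE is the log2 fold change over the square root of F. The step was also run on simulated counts with a fixed spread for all genes. That run does not show how the test performs at the spread of these replicates. Class levels were compared by exact two-sided sign-flip tests of log2(CPM + 5) ratios. Named genes were the members in every class, list genes called in a class or otherwise at most 4 per list with most UMIs, the 3 genes most like each member (genes with at least 200 UMIs, clusters of at least 50 cells) and Arntl. Timd4 was named after its values had been seen. Alternatives were TMM scaling, DESeq2 1.42.0, a minimum of 100 UMIs or none, each replicate left out, resolution 2, a marker gate on single cells, a stricter cell filter (500 genes, 10%), another hashtag rule and a pseudocount of 1 CPM. Adding unnamed clusters and single clusters alone, and comparing clusters 15 and 18 without h7, were chosen after seeing the data. Some items are not reported here.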

Additional observations from a re-analysis of the deposited data

How the results depend on the processing

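No paired analysis was possible because the groups share no hashtag number. No member was called in any alternative, but fold changes changed sign in 43 of 204 values under alternatives, 19 of them with 1 replicate left out. At resolution 2 the melanoma-like class kept 49 of 102 and 119 of 309 cells, close to the 51 and 121 of cluster 15. In melanoma-like cells Axl was -0.19 (resolution 2), -0.12 (stricter cell filter), -0.10 (other hashtag rule), -0.0058 (top Scrublet scores left out) and -0.17 (cluster 15 alone), Mertk -0.039 and -0.045 (resolution 2, cluster 15 alone) and Pros1 0.81, 0.40 and 0.62 (resolution 2, marker gate, cluster 15 alone). In fibroblast-like cells Gas6 was 0.047 with DESeq2, and Axl 0.49 (other hashtag rule) and 0.10 (Scrublet). In macrophage- or monocyte-like cells Axl was 0.029 (TMM), 0.0091 (DESeq2), 0.11 (resolution 2), 0.023 (marker gate), 0.062 (stricter filter), 0.068 (other hashtag rule), 0.048 (Scrublet) and 0.082 (cluster 6 added), and Mertk -0.030 (DESeq2) and -0.16 (cluster 9 alone). In NK cell-like cells Axl was -0.075 at resolution 2.

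With 1 replicate left out, the ranges were -0.59 to 0.11 (Tyro3), -0.17 to 0.10 (Axl) and -0.30 to 0.028 (Pros1) in melanoma-like cells, -0.47 to 0.28 (Axl) and -1.74 to 0.51 (Gas6) in fibroblast-like cells, -0.67 to 0.82 (Mertk), -0.35 to 0.30 (Axl) and -0.67 to 0.41 (Pros1) in macrophage- or monocyte-like cells, -0.41 to 0.86 (Axl) in dendritic cell-like cells and -0.085 to 0.41 (Axl) in NK cell-like cells.

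Genes called changed more. Without a replicate they numbered 0 to 4 (melanoma), 0 to 1 (fibroblast), 0 to 2 (macrophage), 4 to 162 (dendritic) and 1 to 76 (NK). With no filter on genes they were 24, 202, 166, 969 and 83 in that order, and with DESeq2 4, 6, 7, 275 and 94. In melanoma-like cells resolution 2 and the marker gate gave 1 each. In dendritic cell-like cells the marker gate gave 2, adding cluster 3 gave 36 and cluster 1 alone 0. In NK cell-like cells there were 2 with at least 100 UMIs, 30 at resolution 2, 15 with the marker gate, 26 with the other hashtag rule and 14 without the top Scrublet scores. The causes were not tested.

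The log2 ratio of Mertk in macrophage- over melanoma-like cells was -0.32 (resolution 2), -0.084 (stricter filter), -0.11 (Scrublet) and -0.10 (clusters 3 and 6 added). That of Tyro3 in fibroblast- over T cell-like cells was 0.82 with the other hashtag rule (exact p = 0.03125, against 0.15625), and that of Pros1 in fibroblast- over melanoma-like cells 2.13 at resolution 2 (exact p = 0.09375, against 0.03125). The other 29 of 35 class ratios kept sign and side of 0.05. Without h7 the log2 ratio of Axl in cluster 15 to 18 was -0.067. Depth limits Gas6 and Tyro3 most.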

Other observations

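Outside the classes compared above, the TAM genes were also found in unnamed clusters. Cluster 6, led by Adgre4, Ace and Lyz2 with 424 cells, had 46.9 CPM of Pros1 (166 UMIs), 44.1 CPM of Axl and 7.91 CPM of Mertk over both libraries. Cluster 3, led by Mgl2, Plet1 and Epcam with 163 cells, had 102 CPM of Axl and 17.2 CPM of Pros1. Cluster 20, 336 shallow cells with some melanoma markers, had 104 CPM of Axl, 28.8 CPM of Pros1 and no Gas6 UMI. Cluster 13, led by immunoglobulin genes but with 8 of 11 T cell markers raised, had 6.66 CPM of Tyro3 from 8 UMIs. Its cells are not part of the T cell-like class. In its replicates Tyro3 was at 8.85, 3.66 and 4.10 CPM in Empty vector and without a UMI in Bmal1 WT, the opposite order to the T cell-like class. In T cell-like cells Tyro3 was at 2.21, 2.08 and 0.541 CPM in Empty vector and 5.04, 5.97 and 3.58 CPM in Bmal1 WT, from 24 UMIs. Pros1 there was at 4.42, 4.15 and 4.87 CPM in Empty vector and 0.630, 2.99 and 1.79 CPM in Bmal1 WT, from 28 UMIs. None of these comparisons was tested.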
